A study of Mus musculus with 4 samples.

Results

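The cells described here are the keratin-positive tumour cells of mouse ovarian cancers that were treated with interleukin 27 (IL-27) or vehicle and measured by single-cell RNA sequencing. They were chosen from their counts. A barcode had to hold at least 10000 UMIs (unique molecular identifiers, 1 per captured transcript) with under 10% of them from mitochondrial genes, at least 10 UMIs of Krt8 and Krt18 together, at most 1 of Ptprc, at most 4 of C1qa, C1qb and C1qc together, at most 20 of S100a8 and S100a9 together and 0 of Cd3d, Cd3e and Cd3g. The rule found 405 cells among 20967 barcodes, 229 of 10784 in the control matrix and 176 of 10183 in the IL-27 matrix. Krt8, Krt18, Ptprc, the C1q genes, S100a8, S100a9 and the Cd3 genes chose the cells, so their levels are a description only.

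B6C3F1 mice, 6 to 8 weeks old, carried subcutaneous tumours grown from 1000000 injected cells of OV2944-HM1, a mouse ovarian cancer line that is called HM1 for short. The control group received vehicle, and the other group received 100 ng of recombinant mouse IL-27 per mouse, injected into the tumour every other day from implantation. Tumours were digested on day 14 and enriched with beads for CD45, a protein of blood-derived cells, so the tumour cells are those that came through the enrichment. HM1 is 1 cell line, the digest also held cells of the host, and the labels name no gene change in either group. GEO's labels give 4 entries in 2 groups. Each group was deposited as a single matrix, and its cells cannot be assigned to an entry here. Every comparison is therefore of 1 sample with 1 sample (n = 1), without a test and without a replicate to check it against. The number of mice behind each matrix is not given in the sources used here.

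Ovarian carcinoma cells carry the simple keratins KRT8, KRT18 and KRT19 and secrete WFDC2 (HE4), which is used as a serum marker. SOX9 is a transcription factor of duct and progenitor epithelium. IL-27 signals through a receptor made of IL27RA and the shared chain gp130 (Il6st) to JAK kinases and STAT3, and interferon gamma induces genes of antigen presentation and GTPases of cell-autonomous immunity. Tumour cells also shape the leukocytes around them through chemokines, colony-stimulating factors and ligands of checkpoint receptors.

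The control matrix held 54049661 UMIs with a median of 2384.5 per barcode, and the IL-27 matrix held 43868189 with a median of 1847. The tumour cells were far deeper, with a median of 45474 UMIs (10650 to 190655) and 6200 genes in control and 51329 UMIs (11851 to 154953) and 6502 genes in IL-27 cells. They held 20.7% and 22.4% of all UMIs, 11164983 and 9824292. RNA composition differed between the matrices in these cells: mitochondrial genes took 1.16% of UMIs in control and 1.89% in IL-27 cells, the ribosomal RNA-derived genes Gm42418 and AY036118 together took 1.89% and 4.26%, and ribosomal protein genes took 20.5% and 20.7%. The 2 matrices shared 133 barcodes, of which 2 control and 3 IL-27 barcodes were tumour cells, and none of the 133 was a tumour cell in both. No doublet caller was run on the tumour cells. The 10% deepest cells, where doublets are most likely, were left out as an alternative.

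Tumour cells made up 2.12% (1.86 to 2.41) of control and 1.73% (1.48 to 2.00) of IL-27 barcodes, a ratio of 0.814 (0.665 to 0.995). Among barcodes with at least 10000 UMIs they made up 20.2% (17.9 to 22.7) of 1134 and 20.7% (17.98 to 23.6) of 850, a ratio of 1.03 (0.838 to 1.25). The part of the CD45 enrichment and of depth in either share was not tested. All intervals here are exact at 95% (Clopper-Pearson for shares, Poisson for levels, conditional binomial for ratios) and cover counting error only. Few barcodes lay near the limits of the rule. The lowest Krt8 and Krt18 sums among members were 25 in control and 20 in IL-27 cells, with medians of 242 and 223.5. The 80 control and 89 IL-27 barcodes that only the keratin limit kept out held at most 1 such UMI. The UMI limit alone kept out 22 and 18 barcodes, the largest with 9457 and 8166 UMIs. Ptprc alone kept out 3 and 5, the C1q genes 4 and 3, S100a8 with S100a9 9 and 1, and the Cd3 genes 1 and 0. The mitochondrial limit kept out none.

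The 5 marker genes of the label were all abundant. Levels are given as CPM, the UMIs of a gene per 1000000 UMIs summed over the cells of a group. They are not scaled by transcript length, so each gene is compared between groups or cell classes and not with other genes. Paired values give control cells first and IL-27 cells second. Krt8 stood at 3274 CPM in control and 3036 in IL-27 cells. Krt18 stood at 2296 and 1819 CPM. Krt19, which the rule did not use, stood at 1668 and 1123 CPM, Wfdc2 at 525 and 584 CPM, and Sox9 at 835 and 797 CPM. With every cell thinned to 2000 UMIs, Krt19 was found in 89.96% of control and 76.7% of IL-27 tumour cells, against 1.09% and 0.955% of neutrophils and 0 of 42 and 0 of 53 stromal cells, the collagen-positive cells described next. Wfdc2 was found in 59.8% and 65.3% of tumour cells at that depth, against 0.543% and 0.478% of neutrophils, and Sox9 in 66.8% and 64.8%, against 0.339% and 0.318% of neutrophils and 7.14% and 11.3% of stromal cells. Median depths before thinning were 2960.5 and 2562.5 UMIs in neutrophils and 21533 and 16657 in stromal cells. The tumour cells lay far above both classes in both matrices. Neutrophils are not known for keratins, and no limit on keratin UMIs was set for them. Their 1004 Krt8 UMIs in control sat in 2.10% of 1474 neutrophil barcodes and their 578 in IL-27 in 1.11% of 628, and single neutrophil barcodes held up to 393 and 462 UMIs of Krt8 and Krt18. The part of barcodes that hold more than 1 cell, and of free RNA, in these shares was not tested.

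The stromal cells used for comparison were 42 control and 53 IL-27 barcodes with at least 10 UMIs of Col1a1, Col1a2 and Col3a1 and at most 4 of Krt8 and Krt18, so the levels of these 5 genes in them follow from the choice. They carried markers of pericytes, the mural cells of small vessels, beside those of fibroblasts. Rgs5, at 1741 and 1751 CPM, was found in 57.1% of control and 75.5% of IL-27 stromal cells, Notch3 in 59.5% and 71.7%, Cspg4 in 71.4% and 60.4% and Kcnj8 in 54.8% and 43.4%. Of the fibroblast genes, Dcn was found in 61.9% and 66.04%, Pdgfra in 26.2% and 18.9% and Lum in 21.4% and 20.8%. They are a mixed class, and every comparison with them is with that mixture.

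Markers of other cell types were low in the summed tumour cells, with a few single genes above 20 CPM. The 5 tumour markers summed to 8598 CPM in control and 7360 in IL-27 cells. Of 8 fibroblast markers 4 were at 0 in each matrix and the sum was 7.43 and 14.3 CPM, and 6 endothelial markers summed to 5.82 and 9.36 CPM. The 8 macrophage markers summed to 17.9 and 14.9 CPM, 6 neutrophil markers to 14.2 and 11.5, 7 T cell markers to 2.33 and 1.73, and 6 pan-leukocyte markers to 29.1 and 13.03. These 4 sums include the C1q genes, S100a8, S100a9, the Cd3 genes and Ptprc, which the rule kept low. The tumour sum includes Krt8 and Krt18, which it required. Of the macrophage genes the rule did not use, Cd68 was highest, at 10.2 and 7.84 CPM. Of such neutrophil genes it was Mmp9, at 5.73 and 3.77 CPM. The dendritic list reached 107 and 50.1 CPM, which was mostly Cd74, the invariant chain of MHC class II, at 87.1 CPM in control and 43.2 in IL-27 cells. Flt3, Xcr1 and Cd209a of this list were at 0 in both. The list's other members were present, H2-Ab1 at 12.2 and 6.01 CPM and Ccr7 at 7.79 and 0.916 CPM. Ccr7 was found in 9.61% of control and 5.11% of IL-27 cells. The mesothelial list reached 1766 and 1186 CPM, nearly all of it Krt19, which it shares with the tumour list, and Msln at 97.8 and 63 CPM, while Wt1 was at 0. Of the keratinocyte list Krt10 was highest, at 38.6 and 32.9 CPM, of the monocyte list Plac8, at 22.03 and 15.9, and of the mast cell and basophil list Mcpt8, at 22.03 and 27.4. Their part in the results was not tested.

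1 control cell of 25939 UMIs goes against the label. It held all 28 Krt5 UMIs, 91 of 103 Krt14, all 35 Epcam, all 195 Acta2 and 90 of 93 Tagln UMIs of the control tumour cells, with 0 of Krt19, 1 of Wfdc2 and 1 of Sox9. Krt5, Krt14 and Acta2 together are known from myoepithelial cells. Epcam, Acta2 and Tagln in the control matrix are this cell's transcripts, and their ratios between the groups are left out. The cell was kept in all sums, as the rule demands, and without it the counts of higher and lower genes were 438 and 536 in place of 437 and 540.

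**Figure D1:**
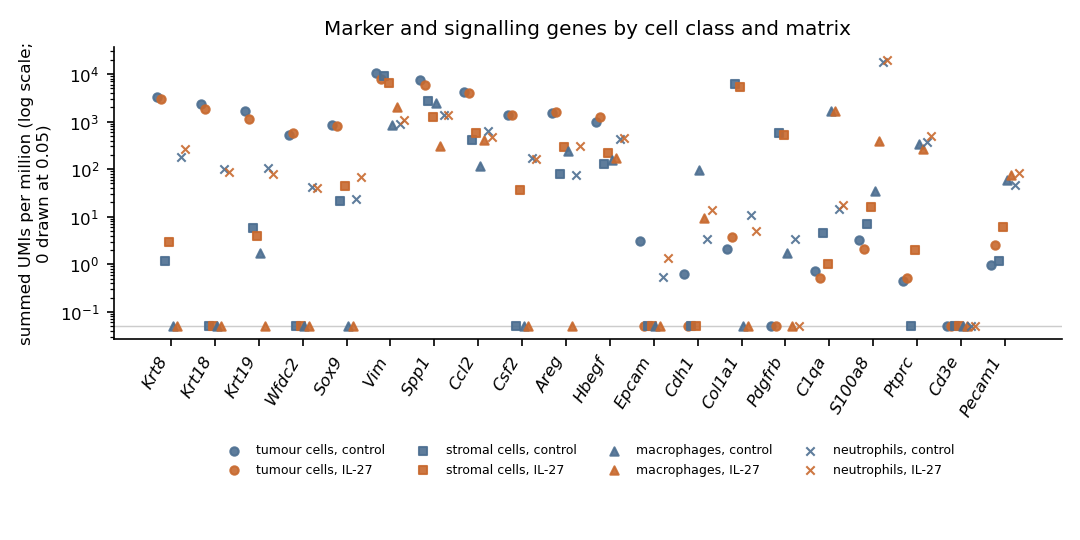
Summed level of 20 marker and signalling genes (x axis) in CPM on a log scale (y axis, 0 drawn at 0.05) for tumour cells, stromal cells, macrophages and neutrophils (symbols) of the control (blue) and IL-27 (orange) matrix; each symbol is 1 sum with no replicate. Krt19, Wfdc2, Sox9 and Csf2 were high in tumour cells of both matrices, at 1668 and 1123 CPM for Krt19, while Cdh1 was near 0; Krt8 and Krt18 chose the tumour cells and Col1a1 the stromal cells.

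The tumour cells had keratins without most other genes of epithelial identity. Of 28 epithelial genes 12 reached 50 UMIs over both matrices, the minimum for a gene to be compared here. Cdh1, the E-cadherin of epithelial junctions, had 7 control UMIs, 5 of them in the Krt5 cell, and 0 IL-27 UMIs. Cldn7, Esrp1, an epithelial splicing factor, and Ovol1 and Ovol2, repressors of the mesenchymal programme, were at 0 in both. Junction genes that were present included Jup at 102 CPM in control and 88.7 in IL-27 cells and Dsp at 13.9 and 13.6 CPM, with the protease inhibitor Spint2 at 117 and 103 CPM. Of 24 ovarian and Mullerian genes 4 were compared, and Wt1, Sox17, Muc16, Emx2, Gata4 and Gata6 were at 0, while Pax8, the usual marker of Mullerian carcinoma, had 1 UMI in each matrix. Msln, the mesothelin antigen of ovarian cancer, was found in 78.2% and 83% of cells. Of 17 granulosa and sex-cord genes 3 were compared. Fst (follistatin) stood at 258 and 313 CPM, Inhba, the activin A subunit, at 104 and 157 CPM, and Amhr2, the receptor of anti-Mullerian hormone, at 37.8 and 28.4 CPM. Foxl2, Fshr and Cyp19a1 were at 0. A count of 0 allows up to 0.330 CPM in control and 0.375 in IL-27 cells by the exact interval. Fold bounds further on take counts under 3 as 3, which is 0.269 and 0.305 CPM in these cells.

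Mesenchymal genes were present beside the keratins. Vim (vimentin) stood at 10322 CPM in control and 7842 in IL-27 cells, against 9127 and 6498 in stromal cells of the same matrices. S100a6 stood at 12664 and 14210.3 CPM, Cd44, the hyaluronan receptor, at 678 and 781 CPM, and Fn1 (fibronectin) at 1287 and 1300.3 CPM. The transcription factors of the epithelial-mesenchymal transition were found as well, Twist1 at 132 and 102 CPM, Snai1 at 45.4 and 30.6 CPM, Zeb1 at 32.3 and 38.2 CPM and Zeb2 at 41.2 and 42 CPM. Cdh2, the N-cadherin, had 1 and 2 UMIs, against 23.1 and 41.9 CPM in stromal cells. Acta2 was at 0 in IL-27 cells and Col3a1 at 0 in tumour cells of both matrices, against 2922 and 2954 CPM of Col3a1 in stromal cells, which it helped to choose.

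Among the 20 most abundant genes beyond ribosomal protein and mitochondrial ones was Gm42418, which differed widely between the matrices. Gm42418, which overlaps ribosomal RNA, was at 13484 CPM in control and 31994 in IL-27 cells, with a ratio of 2.37 (2.36 to 2.39), and Eef1a1, the elongation factor, had a ratio of 0.739 (0.731 to 0.748). Gm42418 and AY036118 together also differed in stromal cells, at 5.70% and 8.96% of UMIs. Every CPM shares its total with these transcripts, and their part in the ratios was not tested.

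Set against stromal cells, 531 of 8781 genes (6.05%) were at least 4-fold higher in tumour cells of both matrices and 367 (4.18%) at least 4-fold lower. A gene with under 3 stromal UMIs in a matrix was compared only if its tumour CPM was at least 4-fold that of 3 UMIs. It could therefore not be called lower, and with under 3 in both matrices it could only be called higher. The same entry rule held against macrophages. All counts of higher and lower genes between cell classes are therefore descriptions only. Keratin and collagen limits fixed the ratios of Krt8, Krt18, Col1a1, Col1a2 and Col3a1, which are therefore not read. Beyond these the largest ratios belonged to Krt19, Wfdc2, Eno3, a muscle-type enolase, Trf (transferrin), Plet1, the potassium channel Kcnn4, Pdgfb, the placental hormone Prl2c2, Gchfr, Slpi, Enpp2 (autotaxin, which makes lysophosphatidic acid), the chromatin protein Hmga1 and Baiap2l1. Wfdc2 was at least 152-fold higher in control and at least 195-fold higher in IL-27 tumour cells, since stromal cells had 0 UMIs. Trf was 140-fold and 82.2-fold higher, and Enpp2 53.8-fold and 67.0-fold. Prl2c2 and Prl2c3 are near-identical copies, and reads may be split between them. Of 7 epithelial genes compared 6 were higher and none lower, and of 27 mesenchymal genes 1 was higher and 9 were lower. Against macrophages, 199 of 4152 genes (4.79%) were higher and 242 (5.83%) lower, with Csf2, Tm4sf1, Krt19, Tinagl1, Sox9 and Hspb1 among the leading higher ones. The IL-27 macrophages that could be used were 8 cells.

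Of 31 growth factors and cytokines 10 were higher and 4 lower than in stromal cells, against the background of 6.05% and 4.18%. Genes such as Csf2 and Pdgfb, with under 3 stromal UMIs in a matrix, entered there only through their tumour level. This count is therefore a description only. Csf2 (GM-CSF), which drives the growth and survival of granulocytes and macrophages, stood at 1386 CPM in control and 1392 in IL-27 cells. Stromal cells had 0 and 36.9 CPM. Neutrophils, at 171 and 160.5 CPM, had Csf2 UMIs in 1.09% and 1.11% of cells at 2000 UMIs per cell, against 56.3% and 63.6% of tumour cells. Areg (amphiregulin) stood at 1504 and 1620.2 CPM, Hbegf at 980.1 and 1257 CPM, Btc at 157 and 170.4 CPM and Tgfa at 37.3 and 40.7 CPM, all ligands of the EGF receptor, while the receptor gene Egfr itself had 1.16 and 0.713 CPM, against 128 and 99.6 in stromal cells. Pdgfb, which recruits pericytes, stood at 216 and 201 CPM, against 3.46 and 0 in stromal cells. Bmp4 stood at 104 and 75.2 CPM, against 1.15 and 0, and Lif, a gp130 ligand, at 146 and 186 CPM, against 6.92 and 8.97. Il6, Tgfb2, Tgfb3 and Inhba were the 4 lower ones. Il6 had 3 UMIs in each matrix, against 172 and 579 CPM in stromal cells, and Tgfb2 had 0.269 and 0.916 CPM, against 207 and 237.

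Of 14 chemokines 3 were higher than in stromal cells (Ccl2, Cxcl3 and Cx3cl1) and 3 lower (Cxcl1, Cxcl9 and Cxcl14). Ccl2, which attracts monocytes, stood at 4113 CPM in control and 3988 in IL-27 cells and at 408 and 589 in stromal cells. The neutrophil attractants Cxcl2 and Cxcl3 stood at 1898 and 2219.7 CPM and at 1869 and 1376 CPM, against 189 and 648 for Cxcl2 and 58.8 and 45.8 for Cxcl3 in stromal cells. Neutrophils held far more of both at the thinned depth used for Csf2 above. Cxcl2 had means of 93.5 and 80.8 UMIs per neutrophil and 3.62 and 4.52 per tumour cell. Cxcl3 had 38.3 and 28.6 per neutrophil and 3.69 and 2.75 per tumour cell. The part of free neutrophil RNA in the tumour cell values of both genes, here and further on, was not tested. Cxcl1, a relative of Cxcl2 and Cxcl3, stood at 10.4 and 8.35 CPM in tumour cells and at 1679 and 1293 in stromal cells. Cxcl12, Ccl11 and Cxcl14, chemokines of stromal cells, had at most 3.67 CPM in tumour cells. Spp1 (osteopontin) stood at 7333 and 5768 CPM, against 2719 and 1246.

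Several of these secreted genes were among those that varied most from cell to cell. After thinning every cell to 10000 UMIs, the variance over the mean had a median of 1.10 in control and 1.10 in IL-27 cells over 7002 genes. It reached 64.1 and 47.5 for Ccl2, 41.2 and 36.1 for Cxcl2, 53.6 and 34.3 for Spp1, 25.1 and 19.1 for Cxcl3 and 26.1 and 18.2 for Csf2. The other genes among the 15 most variable were Malat1, Lars2, Hspb1, Mt1, S100a6, Ccl4, Prl2c3, Fosb, Trf and Ctsl, and all 15 were also the leading 15 at 20000 UMIs. Ccl2 in control cells ran from 0 UMIs at the 10th percentile through a median of 15 to 110.6 at the 90th and 263 at most, and in IL-27 cells from 0 through 17 to 102 and 164. Csf2 ran from 0 through 4 to 40.2 and 106 in control and from 0 through 8.5 to 33 and 87 in IL-27 cells. A Csf2 UMI was found in 75.5% (69.5 to 81.0) of thinned control and 83.5% (77.2 to 88.7) of thinned IL-27 cells, and in 84.7% and 93.2% before thinning. Sox9 was more even, from 1 at the 10th percentile through 7 to 17 at the 90th in control and from 2 through 7 to 15 in IL-27 cells. Areg was found in 96.9% and 96.6% of thinned cells. The ranges of the 2 groups overlapped for each of these genes.

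**Figure D2:**
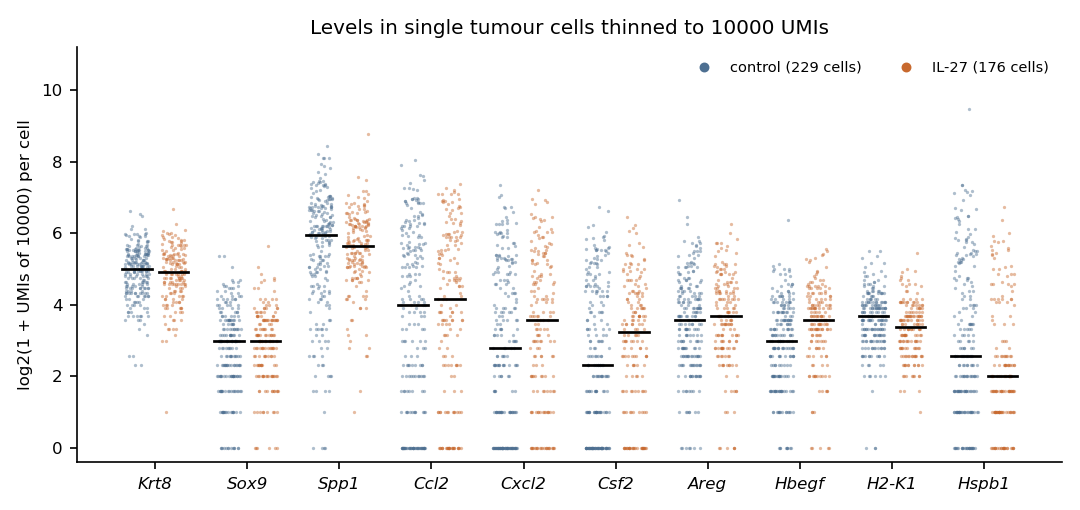
Each point is 1 tumour cell thinned to 10000 UMIs; the y axis is log2(1 + UMIs of 10000) for the genes on the x axis, with control cells in blue (229) and IL-27 cells in orange (176), and black bars mark the medians over cells. Ccl2 spread from 0 to 263 UMIs in control and from 0 to 164 in IL-27 cells; cells are not replicates.

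Levels of some secreted signals moved together across cells and those of others did not. Of 91 pairs of 14 secreted or signal-making genes, 20 had r of at least 0.3 in both matrices and 11 had r between -0.1 and 0.1 in both, with medians of 0.22 and 0.21. Across thinned cells Ccl2 correlated with Cxcl2 at r = 0.52 in 229 control and 0.66 in 176 IL-27 cells, Cxcl2 with Cxcl3 at 0.55 and 0.62, Cxcl2 with Csf2 at 0.51 and 0.52, Areg with Hbegf at 0.51 and 0.52, and Csf2 with Hbegf at 0.50 and 0.47. Ccl7 and Areg, at 0.08 and 0.08, Csf3 and Areg, at 0.01 and 0.00, Cxcl1 and Areg, at -0.09 and -0.04, and Ptgs2 and Ccl2, at 0.07 and 0.05, were close to 0. Summed programmes showed further pairs: S-phase with G2M genes at 0.62 and 0.42, and G2M genes with depth at 0.37 and 0.38. The cells of a matrix share 1 library, so these are descriptions.

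Clustering the 405 cells together gave 4 clusters at a Leiden resolution of 0.5, 3 at 0.3 and 6 at 1.0. Cluster 1 (62 cells, median 77769.5 UMIs) was led by dividing-cell genes, with Ube2c at 488 CPM in it and 6.27 in the rest and Top2a at 812 and 16.6. Cluster 2 (121 cells, median 53850 UMIs) was led by Grem1 (45.4 and 10.3 CPM), Klk6 (232 and 72.1) and Ptprz1, with Slpi at 867 and 425. Cluster 3 (117 cells, median 46823 UMIs) was led by Cxcl2 (4267 and 1218 CPM), Cxcl5 (201 and 57.4), Ccl7 (289 and 85.9) and Ereg (345 and 104). Its leading genes also included Ccl4, the class II gene H2-Eb1 (22.9 and 4.45), Lcp1 (15.6 and 2.23) and Ccl22 (9.44 and 0). All 54 Ccl22 UMIs of the tumour cells lay in this cluster. The part of cells with leukocyte transcripts in cluster 3 was not tested. Cluster 4 (105 cells, median 31128 UMIs) was led by Hspb1 (5207 and 561 CPM), Dnajb1 (588 and 99.0), Sfn (53.8 and 0.679) and Slurp1 (143 and 7.59). It held the Krt5 cell with its 195 Acta2 UMIs. Ccl2 was 694 CPM in cluster 4 and 4688 in the rest, and Csf2 479 and 1560. Krt8 lay between 2345 CPM in cluster 1 and 3661 in cluster 2. Depth differed between the clusters, and its part in them was not tested. The groups were spread unevenly over the clusters, with 29, 76, 49 and 75 control cells and 33, 45, 68 and 30 IL-27 cells in clusters 1 to 4. These genes defined the clusters and some of them differed between the groups, so no test was made and nothing is read from the sizes. The values of the 2 groups given further on are over all their cells.

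Transcripts of whole chromosomes set the tumour cells apart from host cells. Genes of chromosome 15 held 7.45% of control and 7.10% of IL-27 tumour UMIs, against 3.85% and 3.57% in stromal cells, ratios of 1.94 and 1.99. The median log2 ratio to stromal cells was 0.70 over 300 genes in control and 0.71 over 280 in IL-27 cells, and the median against neutrophils was 1.23 in both. Krt8, Krt18 and Myc lie on this chromosome, and without its 10 highest genes the sums had ratios of 1.75 and 1.85. Chromosome 16 went the other way, with 1.28% and 1.33% of tumour UMIs against 2.17% and 2.17% in stromal cells, median log2 ratios of -0.60 over 253 and -0.56 over 242 genes, and -1.14 and -1.17 against neutrophils. Chromosome 10 had medians of -0.51 and -0.48 and chromosome 18 of -0.46 and -0.45 against stromal cells, and chromosome 11 of 0.35 and 0.35. The X chromosome was near even at -0.03 and 0.02. These are sums of transcripts. DNA was not measured.

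**Figure D3:**
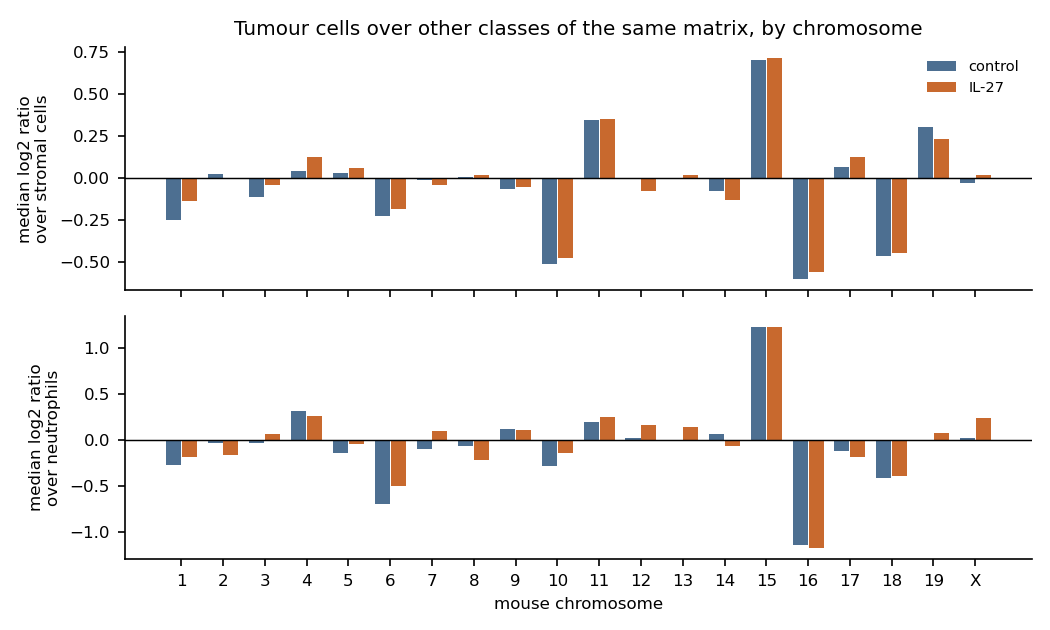
Median over genes of the log2 ratio of tumour cells to stromal cells (top) and to neutrophils (bottom) of the same matrix (y axes) for each mouse chromosome (x axis), with control in blue and IL-27 in orange. Chromosome 15 had the highest and chromosome 16 the lowest median in both panels and both matrices, at 0.70 and -0.60 over stromal cells in control.

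A block of neighbouring genes on chromosome 4 (mm10) was nearly silent. Cdkn2a (chr4:89274471-89294653), which encodes the tumour suppressors p16INK4a and p19ARF, had 1 UMI in control and 0 in IL-27 tumour cells, against 30.0 and 14.9 CPM in stromal cells. Cdkn2b (chr4:89306299-89311039), the neighbouring CDK inhibitor, had 0 in both, against 6.92 and 11.96 CPM. Mtap (chr4:89137122-89181081), a methionine salvage enzyme, had 3 UMIs, all in 1 control cell, and 0 in IL-27 cells, against 33.4 and 21.9 CPM in stromal cells. In IL-27 cells Mtap was at least 71.8-fold and Cdkn2a at least 48.9-fold lower than in stromal cells. Klhl9, which lies before Mtap on the same chromosome, was present in both, at 30.8 and 45.5 CPM in tumour cells and 38.04 and 33.9 in stromal cells. Mllt3, before Klhl9, was higher in tumour cells, at 67.8 and 67.4 CPM against 2.31 and 7.97. Xist, the RNA that silences 1 X chromosome in female cells, had 21 and 2 UMIs in tumour cells, 8 of the control UMIs in the Krt5 cell, against 250.1 and 321 CPM in stromal cells. Ddx3y, Eif2s3y, Kdm5d and Uty, on the Y chromosome, were at 0 in the tumour cells and stromal cells of both matrices.

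Genes of p53 and cell-cycle control were found beside this silent block. Trp53 stood at 107 CPM in control and 117 in IL-27 cells. Its targets Cdkn1a (p21) and Mdm2 stood at 606 and 839.9 CPM and at 478 and 851 CPM, ratios of 1.38 (1.34 to 1.43) and 1.78 (1.72 to 1.84) between the groups. In stromal cells Mdm2 stood at 130 and 123 CPM. Ccnd1 (cyclin D1) stood at 395 and 461 CPM, against 50.7 and 62.8 in stromal cells, whereas Ccnd2 had 18 and 1 UMIs, against 91.1 and 117 CPM. Myc, on chromosome 15, stood at 273 and 218 CPM, against 184 and 85.7.

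IL-27 and control tumour cells were then compared over 10495 genes with at least 50 UMIs. IL-27 cells had 437 genes (4.16%) at a ratio of at least 1.5 and 540 (5.15%) at the same fold lower, and the median log2 ratio over all genes was -0.04. With ratios divided by that median the split was 523 higher and 434 lower. The log2 ratio correlated with transcript length at r = 0.22 and with GC content at -0.27 across genes, which are not independent. The groups cannot be told apart from the matrices they were sequenced in.

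Among the 12 highest ratios of 8838 genes found in at least 20% of cells of the higher group, Hist1h4d was at 20.7 CPM in control and 104 in IL-27 cells, with a ratio of 5.0 (4.33 to 5.8). Hist1h4c and Hist1h2bj were also among them, but histone genes are near-identical copies whose reads may be split, and Hist1h4c went to 0.883 when cells were thinned. Apol8 had 1.88 and 8.14 CPM, the CDK5 activator Cdk5r1 1.7 and 6.92 CPM, Iglon5 2.69 and 8.35 CPM and Nkrf, a repressor of NF-kB targets, 2.24 and 6.21 CPM. The Cdk5r1 ratio of 4.07 (2.42 to 7.16) was 10.4 in thinned cells and 3.12 as a mean of CPM per cell. Vcam1, the adhesion molecule that binds leukocyte integrins, stood at 3.85 and 15.3 CPM and was found in 11.4% of control and 23.3% of IL-27 cells. Its ratio of 3.96 (2.81 to 5.7) was 2.85 without the 19 control and 15 IL-27 cells that held over 2 UMIs of the leukocyte genes Tyrobp, Lyz2, Fcer1g, Cd53, Laptm5, Coro1a and Ptprc, an alternative added after the data were seen. Cenpf, a kinetochore protein, had a ratio of 2.8 (2.41 to 3.26), and Eif3j2, a translation factor with a near-identical copy, 2.43 (1.73 to 3.46). Slurp1 had 14.5 and 45.7 CPM, but 254 of its 449 IL-27 UMIs came from 1 cell, and without the top cell of each matrix the ratio was 1.55. Without the barcodes found in both matrices it was 1.38. It was 7.19 in thinned cells and 6.92 as a mean of CPM per cell, so its size rests on few cells and on the weighting. Cxcl10, the interferon-induced attractant of T cells, had 24.8 and 64.3 CPM. Of its 632 IL-27 UMIs 352 came from 1 cell, and the ratio of 2.59 (2.25 to 3.0) was 1.68 without the top cells and 1.72 without the deepest 10%.

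Among the 12 lowest, Ccn2 (CTGF), a target of YAP and TGF-beta, was at 107 CPM in control and 32.8 in IL-27 cells, with a ratio of 0.305 (0.269 to 0.345), and was found in 50.7% and 37.5% of cells. Tff2, a trefoil peptide of mucosal repair, had 298 and 126 CPM and a ratio of 0.422 (0.395 to 0.451). The small heat shock protein Hspb1 stood at 1739 and 797 CPM and Cryab at 72.6 and 28.5 CPM. Cluster 4, which Hspb1 and Dnajb1 led, held 75 of 229 control and 30 of 176 IL-27 cells, and its part in the ratio was not tested. The Cryab ratio of 0.392 (0.341 to 0.45) was 0.571 without the top cells, since 1 control cell held 322 of 811 UMIs. Isg15 and Irf7, both interferon-stimulated, had ratios of 0.371 (0.29 to 0.47) and 0.447 (0.332 to 0.595). Phospho1, a phosphatase of mineralisation, had 23 and 7.74 CPM, and its ratio was 0.336, but 0.150 in thinned cells. Depp1, Gucd1, Hist1h4n, Pdk2, an inhibitor of pyruvate oxidation, and Mitf completed the 12, with ratios from 0.369 to 0.438.

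G2M genes had the highest median of the 21 lists. Of 35 genes of the G2 phase and mitosis 34 lay above 0 on the log2 scale, 13 were at least 1.5-fold higher in IL-27 cells (against 4.16% of all genes) and none was at least 1.5-fold lower, with a median log2 ratio of 0.40 against -0.04 over all genes. Top2a, which untangles DNA before mitosis, stood at 161 CPM in control and 249 in IL-27 cells and was found in 36.2% and 47.2% of cells. Mki67 was at 79.3 and 107 CPM, with a ratio of 1.35 (1.24 to 1.48), Ube2c, which targets mitotic cyclins, at 86.3 and 155 CPM, and the spindle checkpoint kinase Bub1 at 9.31 and 18.9 CPM. Cdk1 had a ratio of 1.06 (0.934 to 1.2) and Aurkb, the 1 member below 0, 0.829 (0.689 to 1.0), which was 1.26 in thinned cells. Of 32 S-phase genes 2 were higher and none lower, Hells at 2.24 (1.94 to 2.59) and Cdca7 at 1.71 (1.33 to 2.2), and the median of 0.11 was 0.39 in thinned cells and 0.46 without the 10% deepest cells. G2M UMIs per cell of 10000 had a median of 3 in control and 5 in IL-27 cells and a 90th percentile of 54.4 and 66. Depth moves with these genes across cells and differed between the groups, at medians of 45474 and 51329 UMIs, and cluster 1, which dividing-cell genes led, held 29 of 229 control and 33 of 176 IL-27 cells. The part of depth, of RNA content and of the number of dividing cells was not tested. The list's median was 0.41 in thinned cells, and it ran from 0.38 to 0.58 over 19 alternatives.

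The median of the glycolytic and hypoxia genes lay below 0. Of 30 genes 5 were at least 1.5-fold lower and 3 higher, against 5.15% and 4.16% of all genes, and 21 lay below 0 and 9 above. The median was -0.35 (-0.41 to -0.28 over the alternatives). With length and GC trends removed, 1 of the 30 was lower and 2 were higher, and with ratios divided by the median ratio 3 were lower and 4 higher. The glucose transporter Slc2a1 was at 361 CPM in control and 225 in IL-27 cells, with a ratio of 0.622 (0.59 to 0.655). The glycolytic enzymes Gpi1, Aldoa and Pkm had ratios of 0.629 (0.606 to 0.653), 0.652 (0.636 to 0.668) and 0.672 (0.658 to 0.686), and Pgk1, Eno1 and Ldha ratios of 0.756 (0.734 to 0.778), 0.761 (0.745 to 0.777) and 0.765 (0.749 to 0.78). The 3 higher genes were Hk2, a hexokinase, at 1.6 (1.42 to 1.81), the lactate carrier Slc16a1 at 1.63 (1.39 to 1.92) and Pfkfb3, which activates phosphofructokinase, at 2.28 (1.82 to 2.88). Vegfa stood at 227 and 243 CPM and Hif1a at 126 and 164 CPM. Of 36 genes of oxidative phosphorylation none passed 1.5-fold in either direction, with ratios from 0.773 for Ndufv1 to 1.296 for Cox7c. The 25 housekeeping genes had a median of -0.13, with 20 of the 25 below 0, Gpi1 lower and none higher. In stromal cells of the same matrices the 26 glycolysis and hypoxia genes that could be compared had a median of -0.20, and those 26 had -0.40 in tumour cells. The difference was not tested.

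Interferon genes went in both directions. Of 22 interferon-stimulated genes 7 were lower and 1 higher, against 5.15% and 4.16% of all genes. Their median was -0.33 (-0.41 to -0.18 over the alternatives). Isg15, Irf7, Oasl2, Rtp4, Oas1a, Usp18 and Xaf1 were the lower ones, at 25.5 and 9.47 CPM for Isg15 and 15.5 and 6.92 for Irf7, and Trim30a was the higher, at 2.51 and 3.77. Oas1a went to 1.12 in thinned cells. Abundant members were closer to even, with Ifitm3 at 1155 CPM in control and 991 in IL-27 cells and Bst2 at 203 and 165 CPM. Ifit1, Ifit3 and Rsad2 were too low to compare, and Ifih1 had 0 UMIs in both, against 26.5 and 22.9 CPM in stromal cells. In stromal cells of the same matrices the 9 interferon-stimulated genes that could be compared had a median of -0.64. Those 9 had -0.37 in tumour cells, and 0 of the 9 went in opposite directions. The difference was not tested. Of 23 genes of the interferon gamma response 6 were higher and none lower, against 4.16% and 5.15% of all genes. Their median was 0.26 (0.05 to 0.31 over the alternatives). Cxcl10, Tgtp1, Ifi47, Gbp4, Gbp6 and Igtp were the 6, with Igtp at 13.2 and 20.6 CPM and Ifi47 at 9.58 and 15.8 CPM. Gbp2, at 46.8 and 68.7 CPM, had a ratio of 1.47 (1.31 to 1.65), which ran from 0.860 to 2.37 over the alternatives. Most of these transcripts sat in few cells, as shown further on: Gbp6 went to 0.569 in thinned cells and Tgtp1 to 0.888 without the deepest 10%, while Irf1, the transcription factor of the pathway, had 0.693 (0.613 to 0.783). The receptor genes Ifngr1 and Ifngr2 stood at 28.6 and 29.6 CPM and at 28.4 and 23.5 CPM. Cxcl9 had 3 and 29 UMIs.

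H2-K1 and H2-D1, the classical MHC class I genes, were found in every cell. H2-K1 was at 1325 CPM in control and 1101 in IL-27 cells, with a ratio of 0.831 (0.811 to 0.852), H2-D1 at 1339 and 1031 CPM, with a ratio of 0.77 (0.751 to 0.79), and B2m at 1256 and 1267 CPM. In stromal cells H2-K1 stood at 537 and 275 CPM and H2-D1 at 682 and 345. The peptide transporters Tap1 and Tap2 stood at 28.1 and 22.5 CPM and at 37.4 and 27.6 CPM. Of 18 genes of class I presentation 1 was lower and 1 higher, against 5.15% and 4.16% of all genes. The lower was the immunoproteasome subunit Psmb8 at 0.463 (0.303 to 0.693), which was 0.745 without the 19 control and 15 IL-27 cells that held leukocyte transcripts. The higher was H2-Q6 at 3.25 (1.73 to 6.46), which has near-identical copies. The list's median of -0.24 was -0.14 without the cells with leukocyte transcripts. In stromal cells of the same matrices the 14 class I genes that could be compared had a median of -0.82. Those 14 had -0.26 in tumour cells, and the difference was not tested.

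The class II genes lay lower in IL-27 cells, but this rested on few cells. All 6 compared lay below 0 and 5 were lower, against 5.15% of all genes, with a median of -1.02. Without the 19 control and 15 IL-27 cells with leukocyte transcripts the median was 0.12 over the same 6 genes, of which 1 was lower, and Cd74 had a ratio of 1.11, H2-Aa 1.06, H2-Ab1 1.28 and H2-Eb1 1.15. Leaving out the top cell of each matrix for each gene gave -2.25. The class II transcripts sat in 13 control and 3 IL-27 cells with at least 10 UMIs of Cd74, H2-Aa, H2-Ab1 and H2-Eb1, from 10 to 247 and from 38 to 383 each. In 8 of the 13 and in all 3, the 7 leukocyte genes summed to at most 2 UMIs, and 2 of the 13 had at least 10. Krt8 and Krt18 stood at a median of 44.8 and 43.3 per 10000 UMIs in the class II cells and 52.5 and 43.9 in the others.

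**Figure D4:**
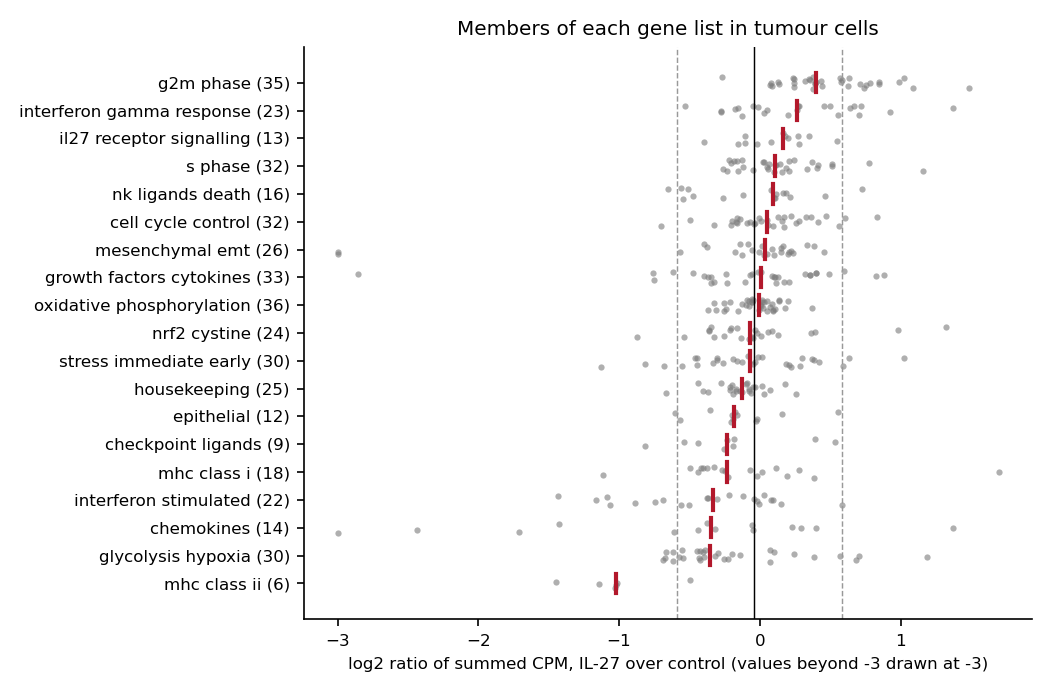
Each grey point is 1 gene of the list named on the y axis (number of genes compared in brackets), at its log2 ratio of summed CPM in IL-27 over control tumour cells (x axis, values beyond -3 drawn at -3); red bars are list medians, the black line is the median of all 10495 genes and dashed lines mark 1.5-fold. G2M genes had the highest median, 0.40, and MHC class II genes the lowest, -1.02, with lists of fewer than 5 compared genes left out.

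Interferon gamma GTPases were few in most cells and high in a handful. The 14 genes Gbp2, Gbp3, Gbp4, Gbp5, Gbp6, Gbp7, Gbp9, Igtp, Irgm1, Irgm2, Iigp1, Ifi47, Tgtp1 and Tgtp2 encode guanylate-binding proteins and immunity-related GTPases, which attack the vacuoles of intracellular parasites and are induced by interferon gamma. Several are close copies of each other (Tgtp1 and Tgtp2 most of all). Among cells thinned to 10000 UMIs, none of their UMIs were found in 165 control cells (72.1% of 229) and in 135 IL-27 cells (76.7% of 176), while 11 control (4.80%, 2.42 to 8.43) and 13 IL-27 cells (7.39%, 3.99 to 12.3) had 5 or more, up to 48 and 47. Those cells held 71.9% and 86.6% of all GTPase UMIs. The limit of 5 was set after the values were seen, and 8 and 6 cells lay between 3 and 6.

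In the cells with 5 or more GTPase UMIs, class I genes such as H2-K1 and H2-D1 were higher as well. H2-K1 had a mean of 29.1 UMIs per 10000 in those control cells and 11.5 in control cells with none, and 22.5 and 9.41 in IL-27 cells. H2-D1 had 21 and 11.5 in control and 18.7 and 8.81 in IL-27 cells, and Psmb9, an immunoproteasome subunit, 2.82 and 0.182 and 2.54 and 0.163. Nlrc5, a regulator of class I genes, had 0.273 and 0.0485 in control but 0.0769 and 0.0963 in IL-27 cells. Ido1, which degrades tryptophan, had 3 and 0.0667, and 2.15 and 0.0370. Cd274 (PD-L1) had 0.909 and 0.0667, and 1.54 and 0.0444. Of all Cxcl10 UMIs before thinning 56.0% in control and 82.8% in IL-27 cells came from the cells with 5 or more. Single tumour cells held 87 of the 277 control and 352 of the 632 IL-27 Cxcl10 UMIs. After thinning, the median of Cd274 and of Cxcl10 in the cells with 5 or more was 0 in both groups, so both rest on few cells. Krt8 (29.6 and 34.2, 31.0 and 32.3) and Sox9 (6.00 and 8.08, 7.08 and 8.10) were at like levels in both kinds of cell. Ccl2 was higher in the cells with 5 or more (57.1 and 33.3, 59.7 and 29.4), and Gapdh was lower (19.1 and 26.1, 17.5 and 22.9). Across all cells the sums of the 14 GTPase and 19 class I genes correlated at r = 0.53 in control and 0.50 in IL-27 cells, and at 0.48 and 0.50 over the 210 and 161 cells with at most 2 UMIs of the 7 leukocyte genes. Of the cells with 5 or more GTPase UMIs, 9 of 11 and 13 of 13 had at most 2 leukocyte UMIs. Of the class II cells, 5 of 13 in control and 3 of 3 in IL-27 were among them. Median depth was 72490 and 65674 UMIs in cells with 5 or more and 45611 and 51945 in cells with none, and its part was not tested.

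**Figure D5:**
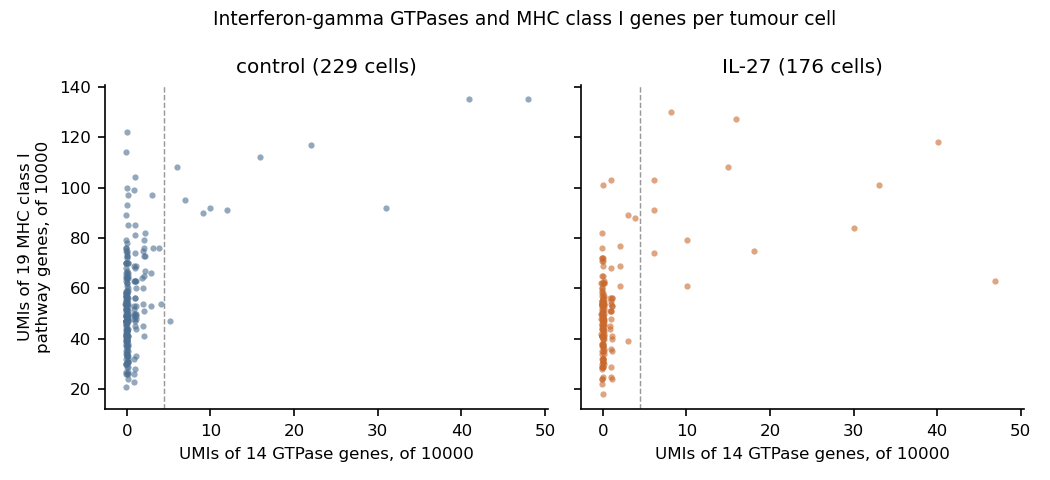
Each point is 1 tumour cell thinned to 10000 UMIs, with the summed UMIs of 14 interferon gamma GTPase genes on the x axis and of 19 MHC class I pathway genes on the y axis, for control (left, 229 cells) and IL-27 (right, 176 cells); the dashed line separates cells with 5 or more GTPase UMIs. Most cells sat at 0 on the x axis, and 11 control and 13 IL-27 cells lay right of the line, with r = 0.53 and 0.50 between the sums.

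Promoters of the GTPase genes carry letters that the factors of this pathway are known to bind, and 3 are shown because most GTPase transcripts sat in few cells. GAS elements were searched as TTCNNNGAA, which reads the same on both strands. IRF and ISGF3 factors bind ISRE elements, searched by their core, a pair of GAAA with 2 bases of any kind between, or on the other strand TTTC with TTTC at the same distance. The 250 bases before the annotated start were taken from RefSeq on GRCm38.p6, the patch release of the build mm10. Gbp2 lies at chr3:142620413-142620662 on the plus strand, Igtp at chr11:58199306-58199555 on the plus strand and Irgm2 at chr11:58214727-58214976 on the plus strand. Capitals mark the matches, and the lines run 5′ to 3′ toward the start site.
Gbp2: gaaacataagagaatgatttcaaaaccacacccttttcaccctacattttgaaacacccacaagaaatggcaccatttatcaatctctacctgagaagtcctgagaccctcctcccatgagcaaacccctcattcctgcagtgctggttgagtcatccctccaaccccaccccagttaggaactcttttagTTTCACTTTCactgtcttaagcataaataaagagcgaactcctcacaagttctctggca
Igtp: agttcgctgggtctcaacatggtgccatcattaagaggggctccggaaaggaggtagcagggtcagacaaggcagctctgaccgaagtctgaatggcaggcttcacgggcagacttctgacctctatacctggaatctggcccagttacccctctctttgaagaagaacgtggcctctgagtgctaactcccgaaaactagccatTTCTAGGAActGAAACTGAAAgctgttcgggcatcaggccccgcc
Irgm2: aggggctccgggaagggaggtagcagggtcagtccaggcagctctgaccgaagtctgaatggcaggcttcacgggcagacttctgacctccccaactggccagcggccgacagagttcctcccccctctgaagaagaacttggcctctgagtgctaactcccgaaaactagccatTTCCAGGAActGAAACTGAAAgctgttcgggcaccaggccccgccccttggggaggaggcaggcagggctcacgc

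The Gbp2 window held 1 ISRE core, read on the opposite strand and starting 59 bases before the start site, and no GAS. Igtp held a GAS starting 45 and an ISRE core starting 34 bases before the start, and Irgm2 the same pair at 75 and 64, so in both promoters the motifs lay side by side without sharing a base. Of the 10 GTPase genes whose promoters were matched (Gbp4, Gbp6 and Gbp9 were not, and Iigp1 was not used here), 6 held a GAS and 9 an ISRE core. This counts 1 promoter per gene. Ifi47 held neither motif, and neither did a further Gbp3 promoter that was left out of the count. These promoters are not independent. The Igtp and Irgm2 windows share long stretches of letters around the motifs. Tgtp1 and Tgtp2, close copies, held a GAS and an ISRE core at 88 and 77 and at 81 and 70. Among 32851 promoters of the same length, counted by promoter and not by gene, 7.02% held a GAS and 2.98% an ISRE core. Irf1 held a GAS and no ISRE core in 1 of its 2 promoters, Cxcl10 and B2m an ISRE core and no GAS, and H2-K1, H2-D1, Tap1, Psmb9, Cd274, Krt8, Krt18 and Csf2 neither. A match is a description of letters in this window.

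The receptor of the injected cytokine was barely detected in the tumour cells. Il27ra, which gives the receptor its specificity, had 3 UMIs in control and 0 in IL-27 cells, and 0 allows up to 0.375 CPM. Il6st (gp130) was at 30.5 CPM in control and 38.9 in IL-27 cells, with a ratio of 1.28 (1.1 to 1.48), against 205 and 276 CPM in stromal cells. Of 13 genes of IL-27 receptor signalling none passed 1.5-fold in either direction, against 4.16% higher and 5.15% lower of all genes. The median of the 13 was 0.16 (0.15 to 0.23 over the alternatives). Stat3 stood at 91.7 and 85.1 CPM, the feedback inhibitors Socs3 and Socs1 at 55.4 and 49.9 CPM and at 45.4 and 52.1 CPM, and Il6ra at 16.3 and 23.8 CPM, with a ratio of 1.46 (1.2 to 1.78). The IL-27 subunit genes Il27 and Ebi3 had at most 4 and 1 UMIs. Osmr, another receptor chain that pairs with gp130, had 7 UMIs in control and 0 in IL-27 cells.

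Of 9 ligands of checkpoint receptors compared, 1 was lower in IL-27 cells and none was higher, against 5.15% and 4.16% of all genes. Cd274 was at 11.3 CPM in control and 9.87 in IL-27 cells, with a ratio of 0.875 (0.664 to 1.15), and was found in 17.9% and 11.4% of cells. The direction of that ratio was not stable, with 0.671 without the top cells, 1.26 as a mean of CPM per cell, 1.49 without the cells with leukocyte transcripts and 2.17 in thinned cells. Cd47, the signal that restrains phagocytosis, stood at 268 and 228 CPM. The nectin family ligands Nectin2 and Pvr, which bind TIGIT and CD226, stood at 51.5 and 38.1 CPM and at 51 and 73.8 CPM, ratios of 0.739 (0.647 to 0.843) and 1.45 (1.3 to 1.62), and Cd276 (B7-H3) had 1.31 (1.11 to 1.56). Ceacam1, a ligand of TIM-3, stood at 59.3 and 49.7 CPM, with 0 UMIs in stromal cells of both matrices, and the T cell co-stimulator Tnfsf9 (4-1BBL) at 41.8 and 28.8 CPM. The lower one was Pdcd1lg2 (PD-L2), at 3.05 and 1.73 CPM. The list's median was -0.23, and 0.14 in thinned cells. Of 16 genes of NK cell ligands and cell death 1 was higher and 1 lower, against 4.16% and 5.15% of all genes. Ulbp1, a ligand of the activating receptor NKG2D, was the higher at 1.66 (1.24 to 2.22) (2.79 in thinned cells). The TNF receptor Tnfrsf1a was the lower at 0.635 (0.558 to 0.723). Raet1e, another NKG2D ligand, stood at 22.7 and 15.5 CPM. The list's median was 0.09, and -0.13 at its lowest over the alternatives.

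Secreted factors went in both directions. Of 33 growth factors and cytokines 3 were higher and 4 lower, against 4.16% and 5.15% of all genes. The counting interval of the ratio lay above 1 for 13 and below 1 for another 13, and the median was 0.01. Csf2, Ccl2 and Areg were near even, with ratios of 1.0 (0.981 to 1.03), 0.969 (0.956 to 0.983) and 1.08 (1.05 to 1.1). Ptgs2 (COX-2), which makes prostaglandins, was higher at 118 CPM in control and 209 in IL-27 cells, with a ratio of 1.77 (1.65 to 1.9), as were Inhba at 1.51 (1.4 to 1.64) and Tgfb3 at 1.85 (1.23 to 2.81). Hbegf, Csf1, Lif and Ereg lay between 1.28 and 1.40. Il1b, Il1a, Igf1 and Csf3 were lower. Il1b had 708 control UMIs, 665 of them in the cells with leukocyte transcripts, and 86 IL-27 UMIs, 77 of them in such cells, and its ratio of 0.138 (0.109 to 0.173) was 0.236 without them. Il1a went to 1.13 without them. Tgfb1 stood at 621 and 480.1 CPM and Spp1 had 0.787 (0.778 to 0.795). Of 14 chemokines 5 were lower and 1, Cxcl10, higher, against 5.15% and 4.16% of all genes. Their median was -0.35 (-0.41 to -0.06 over the alternatives). Without the cells with leukocyte transcripts 3 were lower and the median was -0.13. Among the 5, Ccl3 and Ccl4 were rare and carried by few cells, 1 control cell holding 114 of 238 Ccl4 UMIs. All 54 Ccl22 UMIs lay in control cells with leukocyte transcripts, and Ccl17 had 3.85 and 0.713 CPM with the ratio turning to 3.38 without those cells. Cxcl5, a neutrophil attractant, was the fifth, at 115 and 75.4 CPM, with a ratio of 0.657 (0.599 to 0.72).

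The remaining lists had medians from -0.40 to 0.28, and the share of all genes called was 4.16% higher and 5.15% lower. Stress and immediate early genes had a median of -0.07 over 30 genes, with Atf3, Fosb and Asns higher at 2.04 (1.85 to 2.25), 1.55 (1.5 to 1.6) and 1.5 (1.28 to 1.76) and Hspb1, Nr4a1 and Dnajb1 lower at 0.458 (0.446 to 0.47), 0.569 (0.517 to 0.626) and 0.624 (0.583 to 0.668). The NRF2 and cystine list had a median of -0.07 over 24 genes, with Hmox1 and the cystine carrier Slc7a11 higher at 1.97 (1.65 to 2.37) and 2.51 (1.7 to 3.76) (5.56 without the cells with leukocyte transcripts) and Gsta4 lower at 0.547 (0.401 to 0.741). The cell-cycle control list had a median of 0.05 over 32 genes, with Mdm2 and the p53 target Sesn2 higher and Ccnd3 lower at 0.616 (0.532 to 0.711). The 26 mesenchymal genes had a median of 0.04, and the 2 lower ones were Acta2 and Tagln of the Krt5 cell. The 12 epithelial genes had a median of -0.18 (-0.26 to -0.07 over the alternatives), with 10 below 0. Elf3 was lower at 0.66 (0.494 to 0.877), which went to 1.41 in thinned cells. Krt19, at 0.674 (0.658 to 0.69), lay just inside the 1.5-fold limit. The 4 ovarian genes compared had a median of -0.40, with Msln lower at 0.644 (0.583 to 0.712), and the 3 granulosa genes 0.28, with Inhba higher.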

How the data were processed

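Viable cells enriched for CD45 were profiled with the 10x 5' kit, per the labels' protocols. Each group is 1 deposited matrix of UMI counts from Cell Ranger 4.0.0 on mm10, per the file headers. Seurat 3.2.0 is named in the submitters' processing notes without a role. The members and all gene lists were chosen with earlier results of these data known.

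Counts of the 229 and 176 cells were summed per group and given as CPM with Python 3.11.15, numpy 2.4.6, scipy 1.17.1 and pandas 2.3.3. With 1 matrix per group no test was made and edgeR was not run. A gene was compared with at least 50 UMIs over both matrices, and called at a ratio of 1.5 in either direction. Stromal cells had at least 2000 UMIs, 10 of Col1a1, Col1a2 and Col3a1 and at most 4 of Krt8 and Krt18, with the immune limits of the tumour cells, macrophages at least 10000 UMIs and 50 C1q UMIs, and neutrophils at least 2000 UMIs and 50 of S100a8 and S100a9, the last 2 classes with no keratin limit. A call between cell classes required a 4-fold ratio in both matrices and at least 50 UMIs over the 2 classes in each matrix. Genes with under 3 UMIs in the other class entered only where the tumour CPM was at least 4-fold that of 3 UMIs. Cells were thinned to 10000 UMIs (2000 for shares against other classes), and clustered with scanpy 1.11.5. Chromosomes came from GENCODE M21. Chromosome medians used log2 ratios of CPM plus 1.

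Named genes were members of the 21 lists, the 12 highest and 12 lowest ratios among genes found in at least 20% of cells of the higher group, the 20 most abundant, the 15 most variable and the 15 with the highest ratio over stromal cells and over macrophages; some of these genes are not reported here. The alternatives changed cell limits, gene filters, scaling and left-out cells. Scripts were tested on simulated data.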

Additional observations from a re-analysis of the deposited data

Results flagged for a closer look

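The G2M genes differed between cell classes in the direction of the IL-27 to control ratio. Over the 16 G2M genes with at least 50 UMIs in both classes, the median log2 ratio was 0.44 in tumour cells and -0.998 in stromal cells of the same matrices, and 15 of the 16 genes lay on opposite sides of 0. Over all 4221 genes compared in both classes the medians were -0.02 and -0.06. The stromal cells were 42 control and 53 IL-27 collagen-positive cells that also carried pericyte markers, each class is 1 sum per group, and the difference was not tested.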

How the results depend on the processing

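No paired analysis was possible because each group is 1 matrix with no map from cells to the deposited entries. Intervals cover counting error only, and no value bears on the spread between mice. Cells thinned to 10000 UMIs gave 1023 higher and 1327 lower genes. A minimum of 20 UMIs gave 664 higher, and a minimum of 200 gave 222 higher and 209 lower, for 11702 and 7855 genes compared in place of 10495. Dividing by the median ratio raised the higher share of called genes from 44.7% to 54.6%, and the minimum of 200 gave 51.5%. Of 447 named or listed genes 94 were called, and 11 of these turned under some alternative. In thinned cells Hist1h4c went to 0.883, Elf3 to 1.41, Oas1a to 1.12, Gbp6 to 0.569 and Il1a to 1.01. Without the deepest 10% of cells Tgtp1 went to 0.888. Without the 19 control and 15 IL-27 cells with over 2 UMIs of the 7 leukocyte genes, chosen after seeing the data, H2-Aa went to 1.06, H2-Ab1 to 1.28, H2-Eb1 to 1.15, Cd74 to 1.11, Ccl17 to 3.38 and Il1a to 1.13. Without the 15 control and 3 IL-27 cells with at least 10 UMIs of Cd74, H2-Aa, H2-Ab1, H2-Eb1, Tyrobp and Lyz2, also chosen after seeing the data, H2-Aa, which helped to choose them, went to 1.15 and Ccl17 to 3.70. Of these cells 8 control and 3 IL-27 cells had at most 2 UMIs of the 7 leukocyte genes. With stricter immune limits Ccl17 went to 2.64. List medians moved as follows. Granulosa genes went to 0.17 without the deepest cells and 0.18 with mean CPM per cell, and S-phase genes to 0.46 and 0.35 there and 0.39 when thinned. Without the cells chosen by the 6 genes MHC class I went to -0.0112 and class II to -0.42 over 2 genes, and without those chosen by the 7 leukocyte genes class II went to 0.12. Class II went to -0.45 with stricter immune limits and -2.25 without the top cell. Interferon-stimulated genes went to -0.18 when thinned and -0.18 with length and GC trends removed, which also gave oxidative phosphorylation 0.0699 and stress genes -0.000612. Checkpoint ligands went to 0.14 when thinned. The chromosome 15 sum over stromal cells became 1.75 in control and 1.85 in IL-27 cells without its 10 highest genes, 2.95 and 2.59 against neutrophils and 1.63 and 1.64 as a median ratio. Chromosome 16 became 0.521 and 0.548, 0.555 and 0.537, and 0.658 and 0.680 in the same order. The cause was not tested for any of these. The other 384 list medians stayed within the median counting interval of their genes, and the share of tumour cells had ratios from 0.803 to 0.828 in 8 alternatives.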
